A study of Drosophila melanogaster with 4 samples.

Results

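The genes described here are 10 genes of Drosophila melanogaster that encode heterochromatin protein 1 (HP1) proteins, proteins that bind them, and enzymes that write or remove the histone marks of silent chromatin. They were picked by name, and the 21 transcripts that map to them were summed per gene, so they are 10 of the 14777 genes measured. They lie on chromosome arms 2L (HP1a), 2R (Su(var)2-HP2), 3L (HP4 and Su(var)3-3), 3R (HP1c, Su(var)3-9 and Su(var)3-7) and X (HP1b, HP5 and G9a). Total RNA from adult ovaries was sequenced in 2 libraries of white-embKD flies (genotype vasa-GAL80[ts]/+;;da-GAL4/shwhite) and 2 libraries of piwi-embKD flies (vasa-GAL80[ts]/+;;da-GAL4/shpiwi). Both groups carried a single copy of the daughterless (da) GAL4 driver and of a temperature-sensitive GAL80, the inhibitor of GAL4, under vasa control. They differed in the hairpin, which was directed at the eye-colour gene white in the control group and at piwi in the other. Stocks were held at 18 °C, and RNA interference was started by raising the embryos' temperature to 28 °C. The labels give neither the age of the adults nor how many ovaries went into a library, and they do not say at which temperature the adults were held. The controls are themselves hairpin flies. Effects of losing Piwi and other differences between the hairpin lines therefore cannot be told apart.

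HP1 proteins read a methyl mark on histone H3 (H3K9) through a chromodomain and pair with each other and with partner proteins through a chromo shadow domain. Methyltransferases such as Su(var)3-9 and G9a place that mark, and demethylases clear the marks of active chromatin. Piwi, an Argonaute protein guided by small RNAs, is known to direct this machinery to transposons in the ovary nucleus, where H3K9 methylation and HP1 hold them silent. The name Su(var) comes from genetic screens for suppressors of position-effect variegation, and HP stands for heterochromatin protein. The comparison asks whether RNA of the silencing machinery itself differed in adult ovaries after RNA interference against piwi was started in the embryo.

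Levels are the normalized effective counts the authors deposited, whose column totals were 989279 and 970339.8 in the white-embKD libraries and 1017515 and 1004549 in the piwi-embKD libraries. On the assumption that the smallest step between values is the last decimal place of the counting program, depth was 16194219 to 20025084 effective counts per library. RNA of piwi itself was at 410.0 and 401 in the white-embKD pair and at 238 (replicate 1) and 121 (replicate 2) in the piwi-embKD pair, with a limma adjusted p of 0.0562. Germline RNA matched the ovary label, but RNA of gut genes was present as well, most of it in the white-embKD libraries. The germline genes osk, nanos and vas were abundant in all 4 libraries. Of 5 testis markers, Mst84Da, Mst87F, dj and HP1e were listed at 0 in all 4. The other, bol, was at 6.49 and 6.81 in white-embKD and 10.6 and 10.2 in piwi-embKD (limma adjusted p = 0.0901). Of 10 germline markers 1 was below the filter on low values and 0 were called in either direction. The summed germline list was nevertheless lower in piwi-embKD, at 5054 and 5436 against 6154 and 5985 in white-embKD. Most of that sum came from osk and nanos (2914 and 1334 in white-embKD replicate 1). Both piwi-embKD libraries lay below both white-embKD libraries for 4 of the 10 markers, against 33.1% of all features. They lay above for 3, against 25.9%. At an unadjusted p under 0.05 limma placed 3 of the 10 lower (nanos, osk and BicD), against 11.8% of all features, and placed otu higher. Of 10 follicle cell markers, 2 of them below the filter, 5 rose (tj, Fas3, Yp1, Yp2 and Yp3). Of 7 muscle markers 4 rose, while of 8 gut markers 6 fell. Among all features 5.17% rose and 1.68% fell. The summed follicle list lay at 1373 to 1416 in the white-embKD and 3199.8 to 3225 in the piwi-embKD libraries, the muscle list at 113 to 121 against 180.2 to 214, and the gut list at 149.96 to 170 against 27.8 and 0.653. Most of the follicle sum came from the yolk protein genes Yp1, Yp2 and Yp3 (472, 630 and 259 in white-embKD replicate 1), and Yp1 was also listed as a fat body marker. Gut genes mark another organ, and how their RNA came into the ovary libraries was not tested. In whole ovaries fewer cells of a type and less RNA per cell cannot be told apart, and the part of these cell type markers in the values below was not tested.

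None of the 10 genes passed the test: 0 rose and 0 fell in limma at an adjusted p under 0.05, where 6.85% of the 8118 features tested were called (5.17% rose and 1.68% fell). All 10 lay above the filter on low values. At an unadjusted p under 0.05 limma placed 4 of the 10 lower (HP4, HP5, HP1b and Su(var)3-3) and 0 higher, against 25.1% of all features in either direction and 11.8% lower. Fitted log2 changes, piwi-embKD minus white-embKD, ran from −0.45 for HP4 to 0.05 for HP1c, with a median of −0.19 beside −0.04 over all features. They were negative for 9 of the 10, where 55.7% of all features were negative. The 95% intervals of the 10 changes, each taken on its own, lay between −0.81 and 0.32, so a change of 2-fold, which is 1 on this scale, was outside all of them. Both piwi-embKD libraries lay below both white-embKD libraries for 6 members, against 33.1% of all features, and above them for 0 members, against 25.9%. Values from 2 libraries against 2 cannot give an exact permutation p below 0.333.

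**Figure D1:**
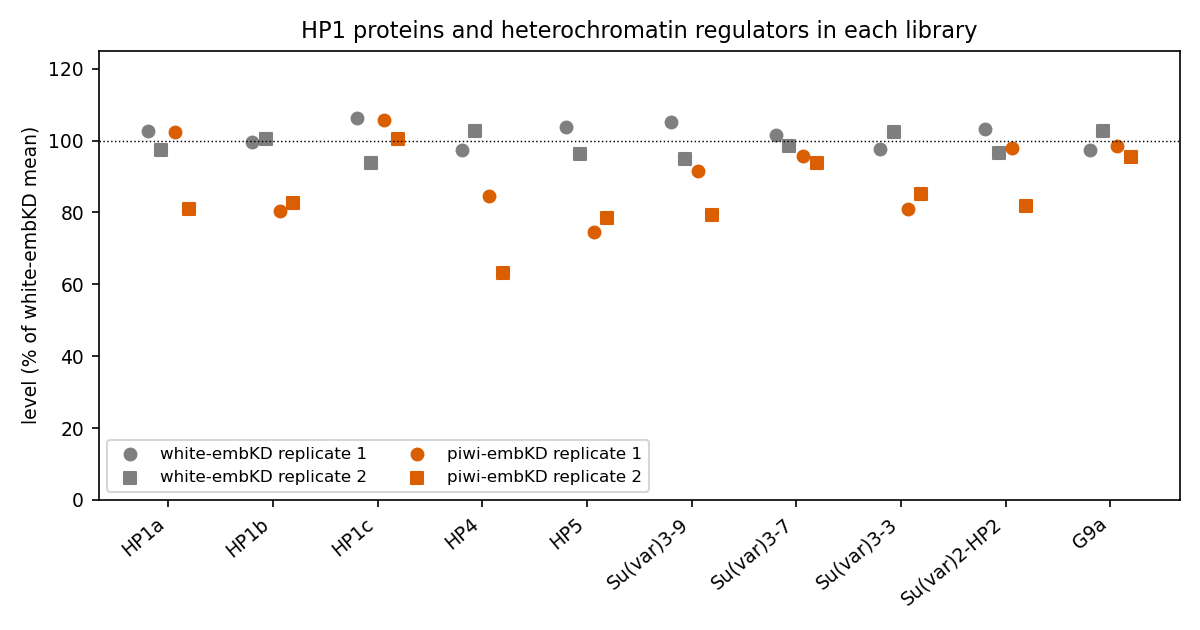
Level of each of the 10 genes in each library, as a percentage of the mean of the 2 white-embKD libraries (dotted line at 100%); gray marks are white-embKD, orange marks piwi-embKD, circles replicate 1 and squares replicate 2. HP4 in piwi-embKD replicate 2 is the lowest point, at 63.2%, and for HP1c, G9a, HP1a and Su(var)2-HP2 the orange and gray marks overlap.

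Among the HP1 proteins, HP1a (FlyBase FBgn0003607, the gene also known as Su(var)2-5) is the founding member, an essential protein that coats pericentric heterochromatin and telomeres. Its level was 266 and 252 in the white-embKD pair and 265 (replicate 1) and 209.9 (replicate 2) in the piwi-embKD pair. The first piwi-embKD library stood inside the white-embKD range and the second below it, so the groups overlapped. Mean levels of 259 ± 10.1 and 238 ± 39.1 (SD, n = 2 each) gave no call: the log2 change of −0.13 ± 0.13 (SE) had a limma adjusted p of 0.546. Its direction rested on piwi-embKD replicate 2: without that library the log2 change was 0.035, and with it but without replicate 1 it was −0.30.

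HP1b, a relative found in both silent and active chromatin, was at 106 and 107 in the white-embKD libraries and at 85.8 and 88.0 in the piwi-embKD libraries. The groups did not overlap, and the members of each pair were close. The mean fell short of the white-embKD mean by 18.4% (107 ± 0.53 against 86.9 ± 1.57, SD, n = 2 each). The log2 change of −0.29 ± 0.09 (SE) did not pass (limma adjusted p = 0.116).

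HP1c, which is known mostly from active chromatin, was at 59.2 and 52.1 in the white-embKD libraries and 58.9 and 55.9 in the piwi-embKD libraries. Both piwi-embKD values lay between the white-embKD values. The log2 change was 0.05 with a 95% interval from −0.22 to 0.32 (limma adjusted p = 0.814), and it was −0.044 without white-embKD replicate 2. Of the exon bases of HP1c, 160 of 986 (16.2%) are shared with CG17141 on the opposite strand. The strand setting of the counting is not given, so reads there may be assigned to either gene; CG17141 stood at 10.3 and 10.2 in the white-embKD and 14.1 and 14.3 in the piwi-embKD libraries (limma adjusted p = 0.125). Within a library, a ratio of a pair of genes does not depend on the scaling between libraries. The level of HP1b was 0.399 and 0.424 of that of HP1a in the white-embKD libraries and 0.323 and 0.419 in the piwi-embKD libraries, and the ratios overlapped.

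Among the 10 genes, HP4 and HP5, which encode proteins that bind HP1, had the largest log2 changes. HP4, also called Hip, encodes a small HP1-interacting protein whose dose modifies variegation. It was at 82.9 and 87.4 in the white-embKD libraries and at 71.9 and 53.8 in the piwi-embKD libraries. Both piwi-embKD libraries were lower, the second by more, at 84.5% and 63.2% of the white-embKD mean. Mean levels were 85.2 ± 3.20 and 62.9 ± 12.8 (SD, n = 2 each), and the log2 change of −0.45 ± 0.15 (SE) had a limma adjusted p of 0.139. It was −0.65 without piwi-embKD replicate 1 and −0.24 without replicate 2.

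HP5, another protein found bound to HP1 in flies, was at 331 and 307 in the white-embKD libraries and 238 and 250.5 in the piwi-embKD libraries. The groups did not overlap and the piwi-embKD values were 74.5% and 78.4% of the white-embKD mean. With means of 319 ± 17.1 and 244 ± 8.93 (SD, n = 2 each), HP5 came nearest to the threshold of the 10 (log2 change −0.39 ± 0.09 SE, 95% interval −0.61 to −0.16, limma adjusted p = 0.0657). It passed when the columns were scaled to the same total (−0.43, limma adjusted p = 0.0456), where 2.36% of all features fell. It also passed when either piwi-embKD library was left out (−0.35, limma adjusted p = 0.0153, without replicate 1, and −0.42, 0.0132, without replicate 2). It did not pass without white-embKD replicate 1 (0.583) or replicate 2 (0.489).

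Su(var)2-HP2 encodes a very large HP1-binding protein of pericentric heterochromatin. It was at 320 and 299 in the white-embKD libraries and at 303 and 253 in the piwi-embKD libraries, and the groups overlapped (log2 change −0.16 ± 0.12 SE, limma adjusted p = 0.423). As for HP1a, piwi-embKD replicate 1 lay inside the white-embKD range and replicate 2 below it. The change was −0.29 without piwi-embKD replicate 1 and −0.03 without replicate 2. Su(var)3-7, a zinc finger protein that accompanies HP1a, differed little between libraries, at 199 and 193 against 188 and 184. The piwi-embKD pair lay just below the white-embKD pair, at 95.7% and 93.8% of its mean (log2 change −0.08 ± 0.09 SE, limma adjusted p = 0.603). Of its 5051 exon bases 693 (13.7%) are shared with TBC1D5 on the opposite strand, which was at 38.2 and 34.8 against 35.0 and 41.1.

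Among the enzymes, Su(var)3-9, the H3K9 methyltransferase of pericentric heterochromatin, was at 92.9 and 83.7 in the white-embKD libraries and 80.9 and 70.1 in the piwi-embKD libraries. Both piwi-embKD values were lower, the first by less than the gap within the white-embKD pair, and the log2 change of −0.22 ± 0.12 (SE) did not pass (limma adjusted p = 0.279). This gene shares its first exons with eIF2gamma, a translation initiation factor gene on the same strand. The shared part is 352 of its 2386 exon bases (14.8%), and the division of those reads was left to a model. The gene eIF2gamma was at 441 and 461 in the white-embKD and 486 and 435 in the piwi-embKD libraries (log2 change 0.03, limma adjusted p = 0.879), and Su(var)3-9 came to 0.210 and 0.182 of it in the former and 0.166 and 0.161 in the latter.

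G9a, a methyltransferase of H3K9 that flies can live without, was at 429 and 452 in the white-embKD libraries and 434 and 420.0 in the piwi-embKD libraries, and the groups overlapped (log2 change −0.04 ± 0.09 SE, 95% interval −0.26 to 0.17, limma adjusted p = 0.775). Su(var)3-3 encodes the fly LSD1, which removes methyl groups from H3K4, a mark of active genes, and so allows heterochromatin to form. It was at 138 and 144 in the white-embKD libraries and 114 and 120.04 in the piwi-embKD libraries. The groups did not overlap, with the piwi-embKD mean 17.0% below that of white-embKD (141 ± 4.67 against 117 ± 4.13, SD, n = 2 each; log2 change −0.27 ± 0.09 SE, limma adjusted p = 0.144). Its binding partner CoRest was not called either (log2 change −0.11, limma adjusted p = 0.453).

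**Figure D2:**
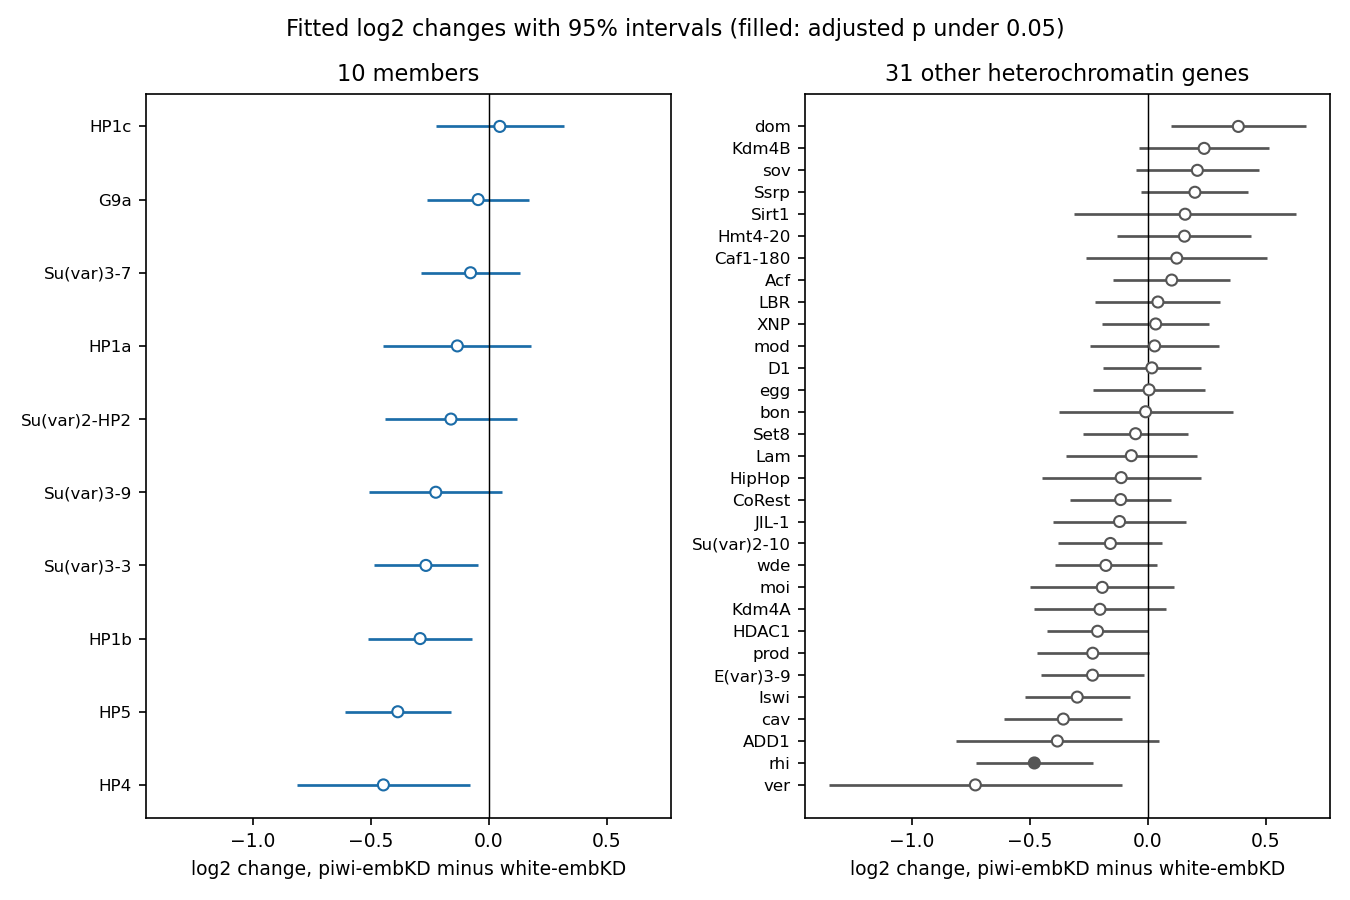
Fitted log2 change (piwi-embKD minus white-embKD) of the 10 genes, left, and of the 31 other heterochromatin genes that passed the filter, right; points are limma estimates, bars their 95% intervals, and a filled point has an adjusted p under 0.05. The filled point is rhi, at −0.48, and the 10 points on the left run from −0.45 for HP4 to 0.05 for HP1c.

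The piwi-embKD libraries agreed closely for some of the 10 genes and not for others. The absolute log2 difference between the 2 piwi-embKD libraries had a median of 0.07 over the 10 genes and 0.19 over all features, and between the 2 white-embKD libraries it was 0.08 for both. Replicate 2 was below replicate 1 by 0.41 for HP4, 0.34 for HP1a, 0.26 for Su(var)2-HP2 and 0.20 for Su(var)3-9 on the log2 scale. For HP1b, HP5 and Su(var)3-3 it was above replicate 1 by 0.04, 0.07 and 0.07. Replicate 2 was below replicate 1 for 7 of the 10 genes and for 4758 of the 8118 features tested. The library with the lower value for HP4, HP1a, Su(var)2-HP2 and Su(var)3-9 is also that with less piwi RNA (121 against 238). The part of that in the result was not tested. Without piwi-embKD replicate 1, 7 of the 10 genes fell, where 19.2% of all features fell, and without piwi-embKD replicate 2, HP1b, HP5 and Su(var)3-3 fell (3 of 10), where 8.92% of all features did. Without white-embKD replicate 1 or replicate 2, 0 of the 10 were called, where 2.93% and 2.56% of all features were. In each of these fits a group has a lone library, which is assumed to vary like the other group.

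**Figure D3:**
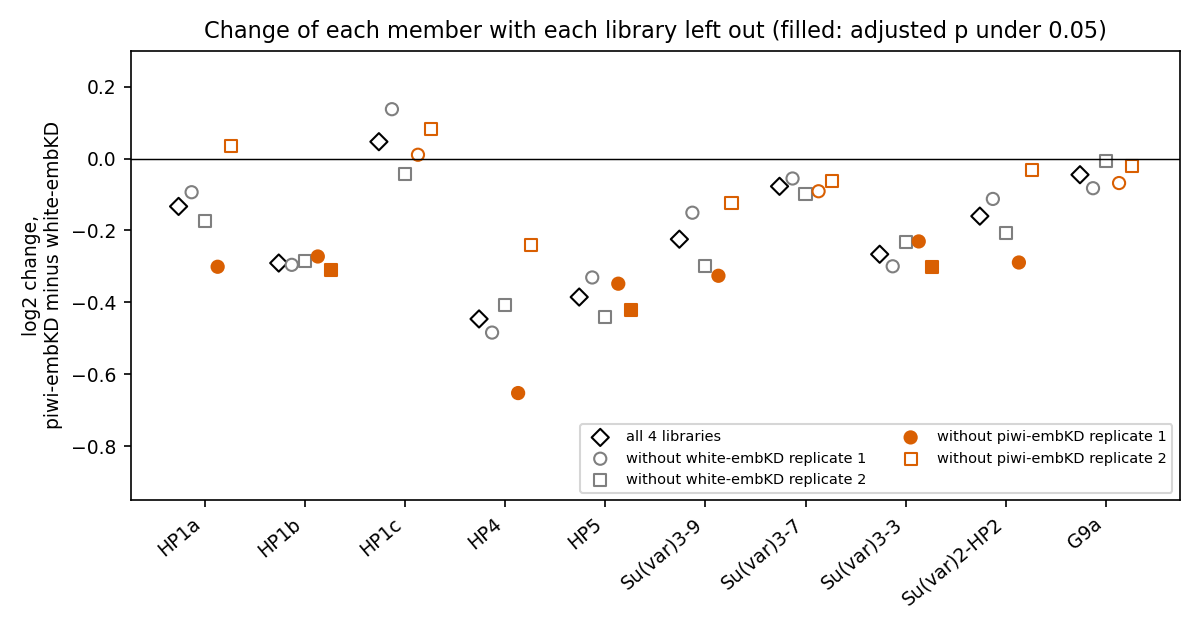
Log2 change of each of the 10 genes with all 4 libraries (diamonds) and with each library left out in turn; gray marks leave out a white-embKD library, orange marks a piwi-embKD library, and filled marks have a limma adjusted p under 0.05. HP1b, HP5 and Su(var)3-3 are filled without either piwi-embKD library, and HP1a moves from −0.30 to 0.035.

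Other ratios of a pair of genes within a library, chosen after their values were seen, gave a mixed picture. HP5 came to 0.773 and 0.680 of the level of G9a in the white-embKD libraries and to 0.548 and 0.596 in the piwi-embKD libraries. HP4 came to 0.312 and 0.347 of the level of HP1a in the former and to 0.271 and 0.256 in the latter. Su(var)3-3 came to 0.727 and 0.785 of the level of CoRest in the former and to 0.677 and 0.681 in the latter. These ratios were lower in both piwi-embKD libraries than in either white-embKD library. HP5, HP4 and Su(var)3-3 were each already lower without overlap, so the ratios are not separate support. Those of Su(var)3-9 to G9a (0.216 and 0.185 against 0.187 and 0.167) and of HP1c to HP1a (0.222 and 0.207 against 0.222 and 0.266) overlapped between the groups.

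Levels of different genes can be set side by side only per length. Per kilobase of the longest coding length, HP1a was the highest of the 10, at 419 ± 16.3 normalized effective counts in white-embKD and 384 ± 63.3 in piwi-embKD (SD, n = 2 each). In white-embKD this was above 95.7% of the 7703 tested genes with a coding length. HP4 followed at 268 ± 10.1 and 198 ± 40.3, HP1b at 148 ± 0.73 and 121 ± 2.18, and HP5 at 127 ± 6.81 and 97.2 ± 3.56, each in white-embKD and piwi-embKD in that order. G9a (88.6 ± 3.27 in white-embKD) and HP1c (78.2 ± 7.05) came next. Su(var)3-3, at 52.8 ± 1.75, and Su(var)3-7, at 52.3 ± 1.12, did not differ beyond their spread in white-embKD, and Su(var)3-9 was at 46.4 ± 3.38. Su(var)2-HP2, with a coding length of 9771 bases, was the lowest, at 31.7 ± 1.49 and 28.4 ± 3.60. By coding length the order in piwi-embKD differed in a single exchange, of Su(var)3-3 (43.9 ± 1.55) and Su(var)3-7 (49.6 ± 0.67). Per kilobase of exon rather than coding length, a choice made after seeing the data, HP5 (82.2 ± 4.40 in white-embKD) stood above HP1b (66.7 ± 0.33). Su(var)3-7 (38.8 ± 0.83) and Su(var)3-3 (38.3 ± 1.27) changed places, and HP1a was again first and Su(var)2-HP2 last. By exon length HP1b was above G9a (60.9 ± 2.24) and HP1c (56.4 ± 5.08) in white-embKD. In piwi-embKD HP1b (54.4 ± 0.98) was below both G9a (59.0 ± 1.34) and HP1c (58.2 ± 2.11).

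**Figure D4:**
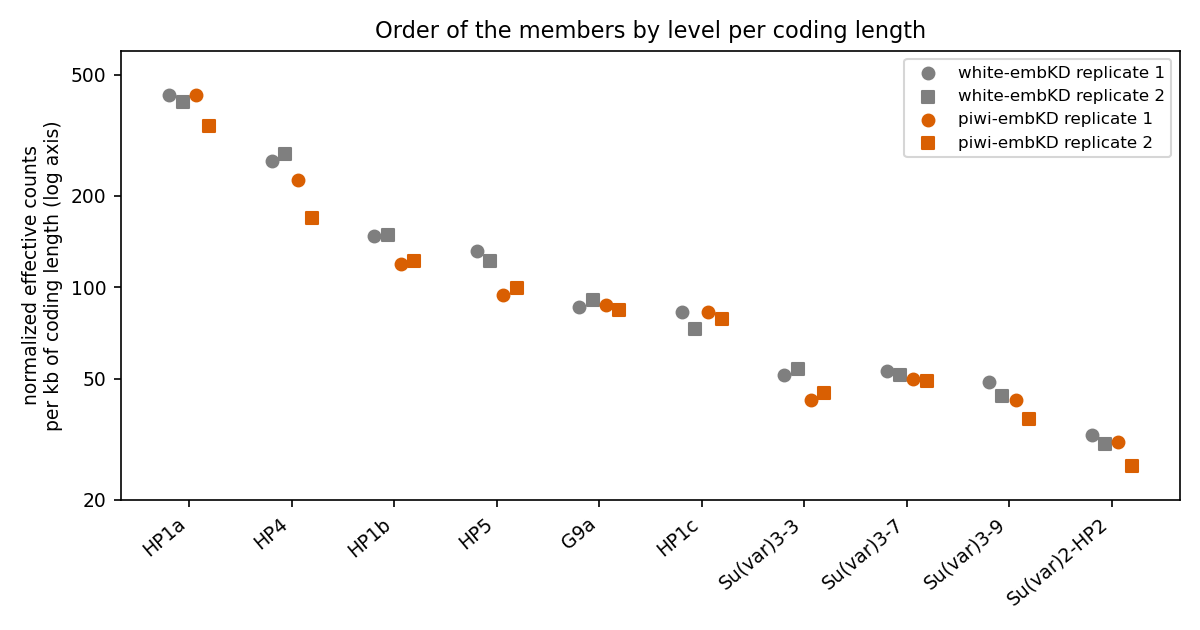
Level of each of the 10 genes per kilobase of its longest coding length in each library, on a log axis, in the order of the white-embKD means; gray marks are white-embKD, orange marks piwi-embKD, circles replicate 1 and squares replicate 2. HP1a is highest in all 4 libraries and Su(var)2-HP2 lowest.

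Of the 10 genes, 8 had more than 1 transcript in the tables. Transcripts of a gene share most of their sequence and their reads were divided by a model, so the shares below are a description. With transcripts left unsummed, 0 of the 19 member transcripts above the filter were called, where 0.615% of all targets tested were. HP1b was almost alike within each pair of libraries: NM_001169242, its main transcript, took 88.8% and 88.9% of the gene in the white-embKD libraries and 84.6% and 84.3% in the piwi-embKD libraries. The transcript NM_001258657 of the same gene was at 10.3 and 10.5 in the former and at 12.7 and 13.3 in the latter, a share of 9.73% and 9.79% against 14.8% and 15.1%. The summed level of HP1b was thus lower in piwi-embKD while the value of this transcript was higher (log2 change 0.30, limma adjusted p = 0.545). All 3 annotated HP1b transcripts have the same coding length of 720 bases.

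HP5 drew 95.9% and 96.1% of its level from NM_132490 in the white-embKD libraries and 97.5% in both piwi-embKD libraries. Its second transcript, NM_001272522, was at 13.3 and 11.6 against 5.86 and 5.59 (log2 change −0.999, limma adjusted p = 0.202, not past the threshold). HP1a had 2 transcripts with the same coding length of 618 bases, and the main one, NM_057407, took 66.6% to 72.5% of the gene with groups that overlapped. Su(var)3-7 was steady in sum but not by transcript. NM_001170130 was at 44.3 and 54.0 in the white-embKD libraries and at 66.8 and 32.3 in the piwi-embKD libraries, a range of shares from 17.5% to 35.6% with the highest and the lowest both in piwi-embKD. Su(var)3-3 had 90.1% to 98.6% of its level in NM_140937, Su(var)2-HP2 had 77.1% to 81.7% in NM_137128 and G9a had 94.9% to 96.4% in NM_130478. The second transcript of HP4 was listed at 0 in both white-embKD libraries and at 0.257 and 0.198 in the piwi-embKD libraries, near the value that 3 counts would give there (0.188 and 0.183).

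**Figure D5:**
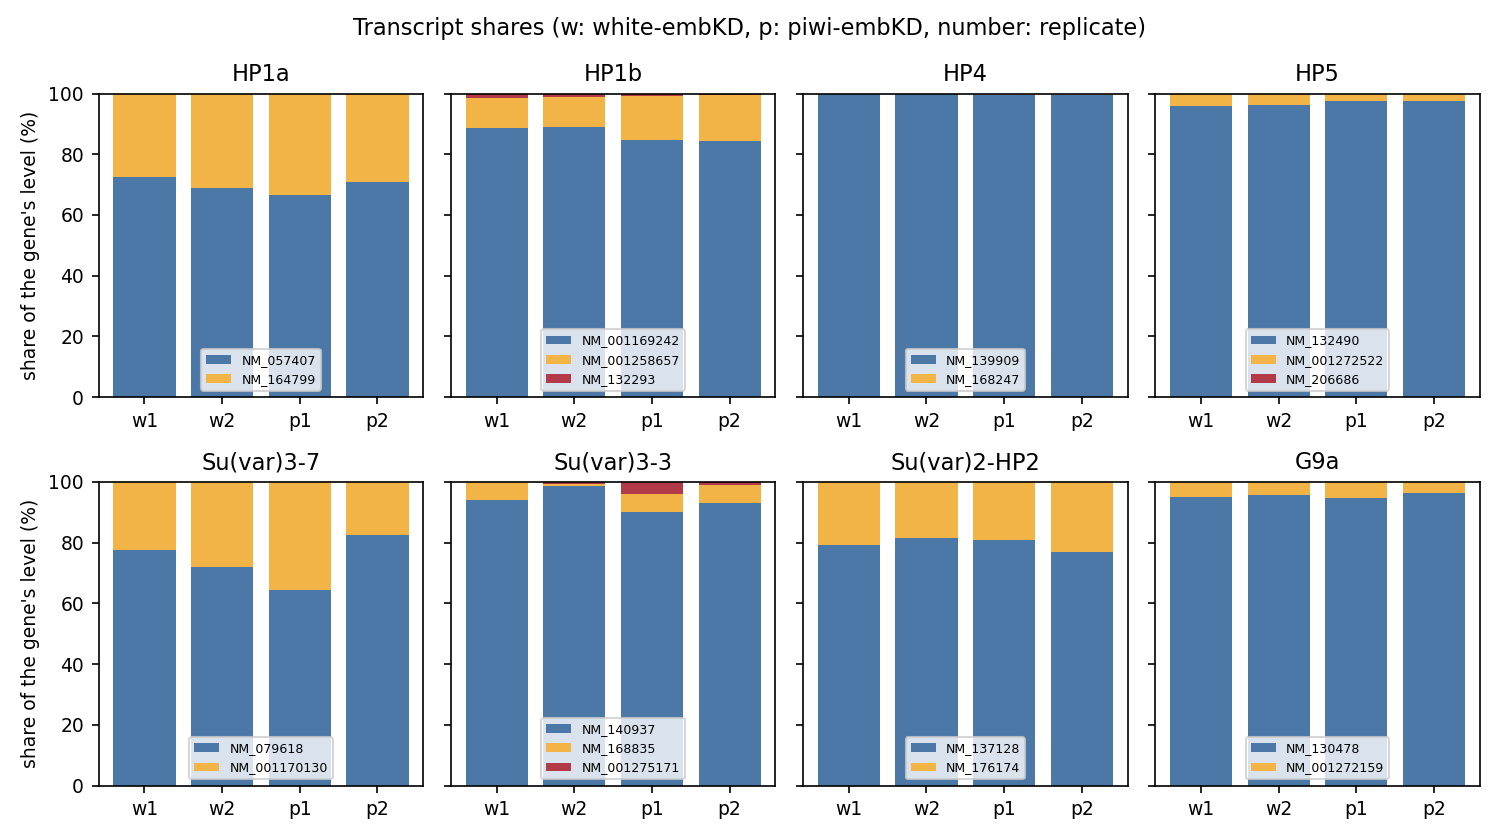
Share of each gene's level (%) taken by each of its transcripts in each library, for the 8 genes with more than 1 transcript; w1 and w2 are white-embKD replicates 1 and 2, p1 and p2 piwi-embKD replicates 1 and 2. The second HP1b transcript takes 9.73% and 9.79% in w1 and w2 and 14.8% and 15.1% in p1 and p2, and Su(var)3-7 varies most between p1 and p2.

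Beyond the 10 genes, 33 other heterochromatin genes were listed by role, of which 31 passed the filter. Of these, 0 rose and 1 fell, where 5.17% of all features rose and 1.68% fell. The median log2 change was −0.07 beside −0.04 over all features. At an unadjusted p under 0.05 limma placed 5 lower and 1 higher, against 25.1% of all features in either direction and 11.8% lower. The gene that fell was rhi, whose protein Rhino is the germline HP1 relative that marks dual-strand piRNA clusters, from 64.6 and 64.0 to 47.7 and 44.0 (log2 change −0.48 ± 0.10 SE, limma adjusted p = 0.0469). It was no longer called when a white-embKD library was left out (limma adjusted p = 0.398 and 0.454), without the trend (0.0720) or with no filter on low values (0.108). HP1e, known from the male germline, and HP6 were listed at 0 in all 4 libraries. Among the H3K9 methyltransferases, egg, the fly SETDB1 that acts in Piwi-directed silencing, was at 67.0 and 67.4 against 65.4 and 69.6 (log2 change 0.01, 95% interval −0.23 to 0.24, limma adjusted p = 0.974), and its cofactor gene wde had a log2 change of −0.18 (limma adjusted p = 0.271).

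Of 5 other genes listed with the demethylases and deacetylases (Kdm4A, Kdm4B, HDAC1, Sirt1 and the binding partner CoRest) 0 were called. Their log2 changes ran from −0.21 for HDAC1 to 0.24 for Kdm4B. The H4K20 and H3S10 enzyme genes Hmt4-20, Set8 and JIL-1 were not called either (log2 changes 0.16, −0.05 and −0.12). Of 16 genes for HP1 partners and heterochromatin structure 0 were called, from −0.38 for ADD1 to 0.38 for dom, which encodes a chromatin remodeler. The 4 genes for telomere capping proteins that bind HP1, which were not called, all had negative changes, where 55.7% of all features were negative. They ran from −0.11 for HipHop to −0.73 for ver. The level of ver was low, at 7.78 and 7.83 in the white-embKD and 5.66 and 3.23 in the piwi-embKD libraries.

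Over the 4 libraries, the 3 genes whose log2 profile lay closest to that of HP1a, by Euclidean distance after centring and among 7779 genes, were mRpS7 (0.013), Alp4 (0.022) and amx (0.025). The nearest of the other 9 was Su(var)2-HP2 at 0.062, with 63 genes closer, and the farthest was HP5 at 0.385. With 4 libraries such distances are a description.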

How the data were processed

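Ribosomal RNA was depleted from 4 µg of total ovary RNA per library and paired reads of 150 nt were sequenced, per the labels' protocols. The authors deposited a signal per target for each library, per the file headers a normalized effective count, a name used by the program eXpress, which divides reads that fit several targets. The submitters' processing notes list Bowtie2, STAR, Cufflinks and the build dm3 without saying what each was for. Annotation, filters, strand setting and normalization factor: not given in the sources used here.

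Of 29511 transcript targets, 28595 (96.9%) were matched to genes with an NCBI RefSeq table of the Release 6 assembly and summed per gene. The other 916 and 126 transposon sequences kept their own rows. Coding lengths, exon overlaps and isoform counts came from Ensembl's dm6 gene models, so no coordinate is given. No sequence is shown.

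Groups were compared with limma 3.58.1 (R 4.3.3, intensity trend) on log2(value + 0.995), over 8118 features with a mean of at least 0.995, with two-sided p-values and Benjamini-Hochberg adjustment over all of these. A fold change on this scale understates the change of low features. The values are not whole reads, so no count test was run. Intervals are limma's. The labels call the pairs biological replicates but do not say whether they came from separate crosses, so p-values measure the spread between these libraries. Floors of 3 counts cover counting error only. All 10 genes were named, with other heterochromatin genes that passed, rhi, HP1e, egg, eIF2gamma, the hairpin targets and 3 nearest profiles; other genes named as range ends or examples were chosen after their values were seen. The genes and lists were chosen with earlier results of these data known. The 13 alternatives varied the scaling, pseudocount, filter, trend, block, summing and libraries. The white gene (w), the control hairpin's target, was at 1.35 and 1.19 in white-embKD and 3.34 and 2.87 in piwi-embKD (limma adjusted p = 0.1004).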

Additional observations from a re-analysis of the deposited data

How the results depend on the processing

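Each log2 change of the 10 genes was recomputed under 13 alternatives. Of the 130 values, 117 kept their direction and their side of the threshold, 11 passed it and 2 changed sign: HP1a (0.035 without piwi-embKD replicate 2, with −0.301 the lowest value over the leave-one-out fits) and HP1c (−0.044 without white-embKD replicate 2, with 0.137 the highest). Of the 11, 10 came from leaving out a piwi-embKD library; the other was HP5 with columns scaled to the same total, the only alternative of the 9 that kept all libraries under which a member fell (1 lower). When each library was left out, the members that fell numbered 0 to 7 and those that rose 0 to 0, and the members' median log2 change ran from −0.281 to −0.093. The other heterochromatin genes called lower numbered 0 to 9 and higher 0 to 6, and 0 were lower with no filter, without the trend or with transcripts unsummed. All features called numbered 209 to 2902 (higher 185 to 1360, lower 24 to 1542) when each library was left out, 105 (82 higher, 23 lower) with no filter and 91 (81 higher, 10 lower) with transcripts unsummed, and the causes were not tested. With the replicate block 811 features were called, 225 of them lower, and 0 of the 10 genes. Deviations of same-numbered libraries correlated at 0.058, so the numbers were not taken to pair samples. Differences of the size seen here, under 0.5 on the log2 scale, are near what 2 libraries per group can resolve, with a median standard error of 0.10 for the 10 genes.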
